A study of Mus musculus with 9 samples.

Results

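Interferon-stimulated genes are described here across 3 states of mouse dental papilla cells, the mesenchyme of the tooth germ that gives rise to dental pulp and odontoblasts. The set is a list of 46 gene symbols (interferon-induced effectors, sensors and transcription factors), and all 46 were found among the 53353 entries of the count table. The list was chosen with earlier results of these data known, so its counts beside shares of all genes are descriptive. RNA was sequenced from C57BL/6 cells, with no genotype or drug named in the labels, in 9 libraries: 3 of primary cells, 3 of monolayer cells and 3 of spheres. Monolayer cells grew on plates in EpiCM medium with 2% serum, 1% growth supplement and antibiotics, for 14 days by the growth protocol and 8 days by the source label. Spheres grew for 8 days in basal EpiCM with methylcellulose, on plates of low attachment, after passage 2, so culture format and medium, and perhaps time, differ together. The series design calls 1 of its groups DPC P2, and the sample titles call it primary cells. No label ties a library to its own animal or culture, and p-values therefore reflect spread among libraries that could be technical.

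Interferons are secreted cytokines released when cells detect foreign or misplaced nucleic acid. Type I interferon binds the receptor pair IFNAR1 and IFNAR2, the kinases JAK1 and TYK2 phosphorylate signal transducers that include STAT2, and these join IRF9 in a complex that binds the interferon-stimulated response element in target promoters. Interferon gamma acts through another receptor, and its target promoters hold the gamma-activated site. The induced genes encode proteins that sense viral RNA or DNA, block translation, degrade RNA and restrict viral entry, and many also hold a low level without added interferon.

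The promoters of 5 members are shown first, because these genes show the pattern most members share and the departures from it. Each line gives the 250 bases before the RefSeq transcription start (GRCm38.p6), 5′ to 3′ on the gene's strand, with matches in capitals. Isg15 and Ifit1 fell 251-fold and 291-fold in spheres against monolayer. Ifi207 and Trim30a are the 2 members that were higher in spheres than in primary cells, and Irf1 is the member that did not pass the test in any comparison. In Isg15, Ifit1, Ifi207 and Trim30a the capitals mark the response element, searched on both strands as GAAA, any 2 bases and GAAA, and in Irf1 the gamma-activated site, searched on both strands as TTCNNNGAA.
Isg15 (chr4:156200819-156201068, minus strand): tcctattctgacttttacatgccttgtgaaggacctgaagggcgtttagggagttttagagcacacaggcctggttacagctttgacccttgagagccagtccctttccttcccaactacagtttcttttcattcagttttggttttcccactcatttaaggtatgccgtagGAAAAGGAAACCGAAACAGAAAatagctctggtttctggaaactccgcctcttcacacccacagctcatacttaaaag
Ifit1 (chr19:34640639-34640888, plus strand): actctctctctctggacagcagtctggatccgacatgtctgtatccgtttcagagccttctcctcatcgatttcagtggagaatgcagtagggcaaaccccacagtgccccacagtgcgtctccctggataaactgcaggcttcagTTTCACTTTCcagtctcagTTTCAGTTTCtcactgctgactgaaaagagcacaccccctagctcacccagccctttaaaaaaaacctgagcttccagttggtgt
Ifi207 (chr1:173741810-173742059, minus strand): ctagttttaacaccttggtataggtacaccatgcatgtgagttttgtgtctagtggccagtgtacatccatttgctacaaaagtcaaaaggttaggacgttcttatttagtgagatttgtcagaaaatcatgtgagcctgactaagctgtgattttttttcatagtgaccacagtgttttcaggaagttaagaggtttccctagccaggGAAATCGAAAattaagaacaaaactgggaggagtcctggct
Trim30a (chr7:104465194-104465443, minus strand, the first of its RefSeq starts): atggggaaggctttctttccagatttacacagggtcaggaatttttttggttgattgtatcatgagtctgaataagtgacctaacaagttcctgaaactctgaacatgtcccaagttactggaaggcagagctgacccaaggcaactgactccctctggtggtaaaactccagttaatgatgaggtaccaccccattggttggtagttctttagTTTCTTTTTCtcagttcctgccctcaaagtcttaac
Irf1 (chr11:53769764-53770013, plus strand, the first of its RefSeq starts): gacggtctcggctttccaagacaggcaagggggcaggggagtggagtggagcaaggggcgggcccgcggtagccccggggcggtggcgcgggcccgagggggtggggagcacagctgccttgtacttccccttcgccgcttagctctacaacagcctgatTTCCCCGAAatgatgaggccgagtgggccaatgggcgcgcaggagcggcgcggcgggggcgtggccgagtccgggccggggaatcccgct

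In Isg15, 3 matches that overlap each other begin 78, 72 and 66 bases before the start, and in Ifit1 separate matches begin 104 and 85 bases before it. The match begins 41 bases before the start in Ifi207 and 36 bases before it in Trim30a, and the gamma-activated site of Irf1 begins 90 bases before it. RefSeq promoters of 250 bases before to 50 bases after the start were matched for 35 of the 46 members. A response element was present in 20 of these (57.1%), against 3.99% of 27025 genes with a promoter entry, and 9 of the members held at least 2. A gamma-activated site was present in 8 members (22.9%), against 9.6% of all genes, and 12 members held neither motif. Of the 40 matches in members, 4 overlapped a match of the other motif and 9 another match of the same motif. These are descriptions of letters in a window.

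Total counts ranged from 35957376 to 52047254 per library, and replicate libraries had Pearson correlations of 0.9924 to 0.995 in log-CPM across genes, which are not independent replicates. Levels are CPM, counts scaled to library sizes corrected by TMM factors, and a group without a count is limited to 3 counts over that group, at most 0.0244 CPM. Such limits and the counting intervals below cover counting error only. Dental papilla mesenchyme markers summed to 1780 to 1820 CPM over the primary libraries, 1940 to 2020 over the monolayer and 1640 to 1710 over the spheres. Of these, 12 of 14 had a count, and Dlx1 and Dlx6 are listed at 0. Dlx1 lies wholly inside another gene and another gene covers 25.9% of Dlx6, so no level is given for them. Single markers moved in both directions within these sums. Pax9 averaged 196, 298 and 44.7 CPM in primary cells, monolayer and spheres, and Msx2 168, 68.4 and 215 CPM. Of the 46 members, 45 passed the filter on low counts. The other, Ifi203, is listed at 0 in every library. Mndal covers 99.2% of its span, so no level is given for it.

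The members together were highest in monolayer, intermediate in primary cells and lowest in spheres. Their summed level was 1154, 1168 and 1174 CPM in the primary libraries, 4008, 3967 and 3978 CPM in the monolayer libraries, and 422.6, 420.6 and 423.7 CPM in the sphere libraries. The groups did not overlap. The mean member level of the 45 had a median of 13.0 CPM for primary cells, 57.8 for monolayer and 0.918 for spheres. In monolayer 41 members had at least 10 CPM, against 23 in primary cells and 10 in spheres, while 1, 6 and 24 were under 1 CPM. Taken gene by gene, 42 of the 45 had every monolayer library above every primary library and every primary library above every sphere library. Over all genes tested, 35.8% had monolayer wholly above primary cells, 41.4% had spheres wholly below primary cells and 37.5% had spheres wholly below monolayer. These shares are for single pairs of groups. The share of all genes with the whole order was not counted and cannot exceed 35.8%. Ifi207 and Trim30a had spheres between monolayer and primary cells, with spheres wholly above primary cells as in 39.8% of all genes, and Irf1 had overlapping groups. In these bulk samples, fewer cells of a type and less RNA per cell cannot be told apart.

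**Figure D1:**
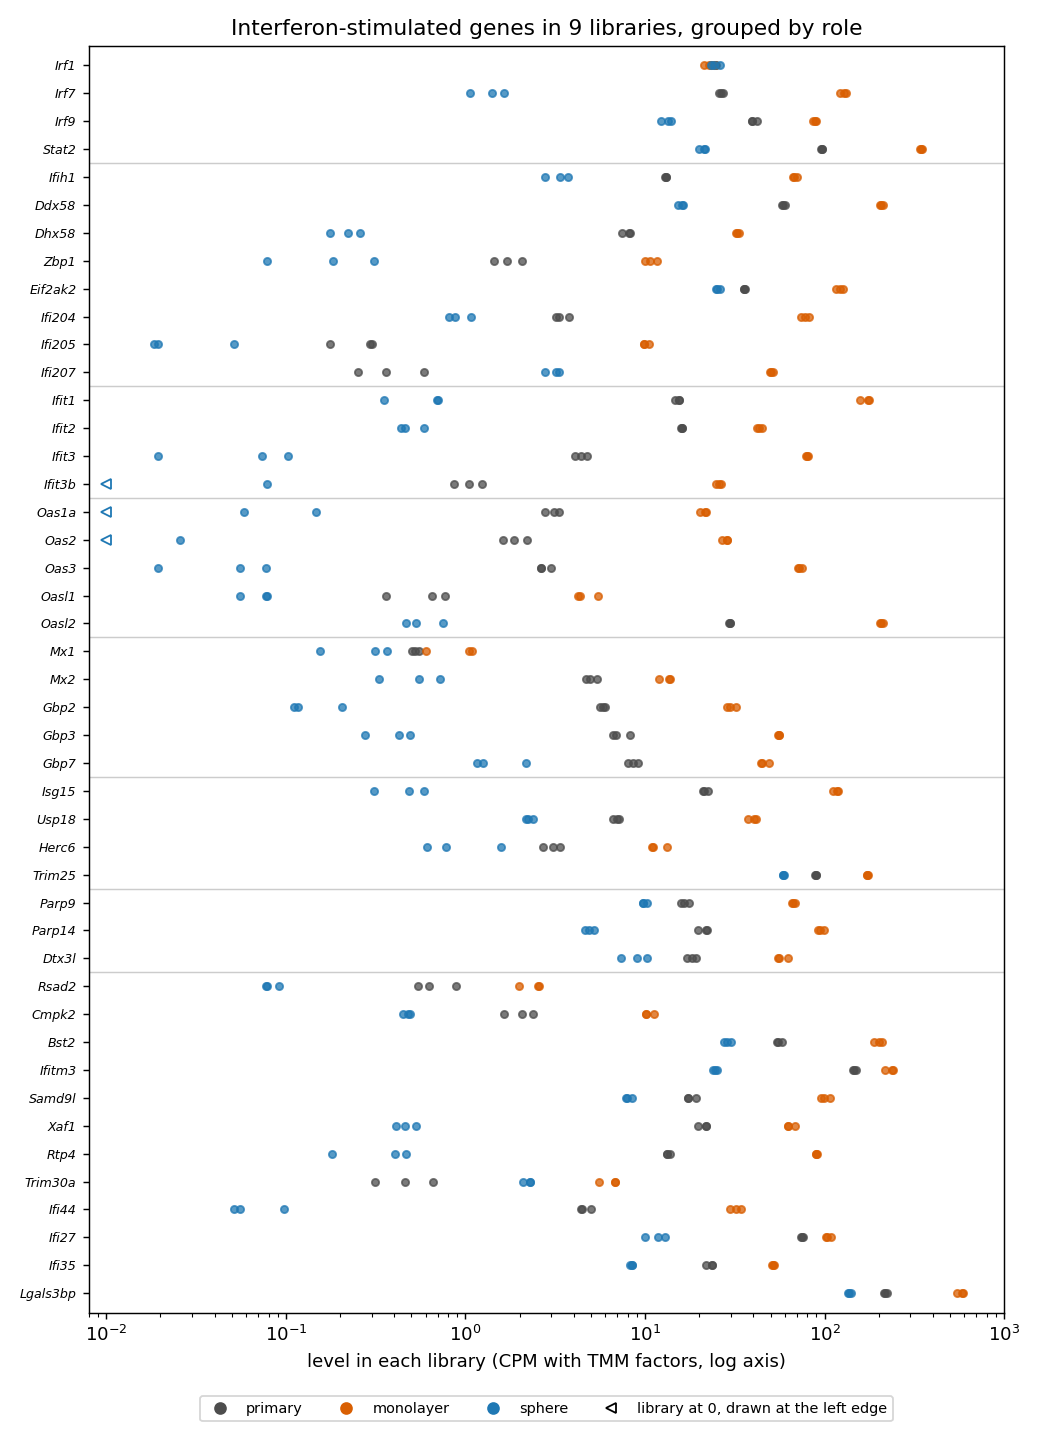
Each row is a tested member, by role, and each dot is the CPM of 1 library on a log axis, coloured by group, with libraries at 0 as triangles at the left edge. In most rows monolayer lies to the right and spheres to the left, the Irf1 dots coincide at 21.4 to 26.2 CPM, and for Ifi207 and Trim30a primary cells lie to the left.

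Spheres were first set against monolayer cells, a contrast in which culture format and medium, and perhaps time, differ together. Of the 45 tested members, 44 fell in spheres and none rose, where 37.7% of the 15675 genes tested were lower and 40.7% were higher (edgeR quasi-likelihood test, Benjamini-Hochberg adjusted p under 0.05). The count that rose was 0 also at an unadjusted p under 0.05 and by DESeq2. Irf1, at a log2 difference of 0.11 with an adjusted p of 0.0988, was the exception. All 44 also fell beyond 2-fold, against 15.4% of all genes. The median log2 change of the members was -4.65, against 0.04 over all genes, and 23 of them stood among the 500 genes with the lowest change.

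Monolayer cells were then compared with primary cells. Here 44 of 45 members rose and none fell, where 34.4% of genes were higher and 36.9% lower by the edgeR test. The count that fell was 0 as well at an unadjusted p under 0.05 and by DESeq2. Beyond 2-fold 40 rose, against 6.18% of all genes, and the 5 others were Mx1, Trim25, Ifitm3, Ifi27 and Irf1. The median log2 change was 2.37, against -0.03 over all genes, and 26 members stood among the 500 genes with the highest change.

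Spheres were last compared with primary cells, a contrast that shares its libraries with both others. Those others also share the monolayer libraries, so the counts of the 3 comparisons are not independent. Here 42 of 45 members fell, where 40.6% of genes were lower, and 2 rose, where 38.9% were higher. Beyond 2-fold 35 fell, against 16.5% of all genes, and Ifi207 and Trim30a rose, against 11.3%. The median log2 change was -2.57, against -0.02 over all genes, and 16 members stood among the 500 genes with the lowest change.

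**Figure D2:**
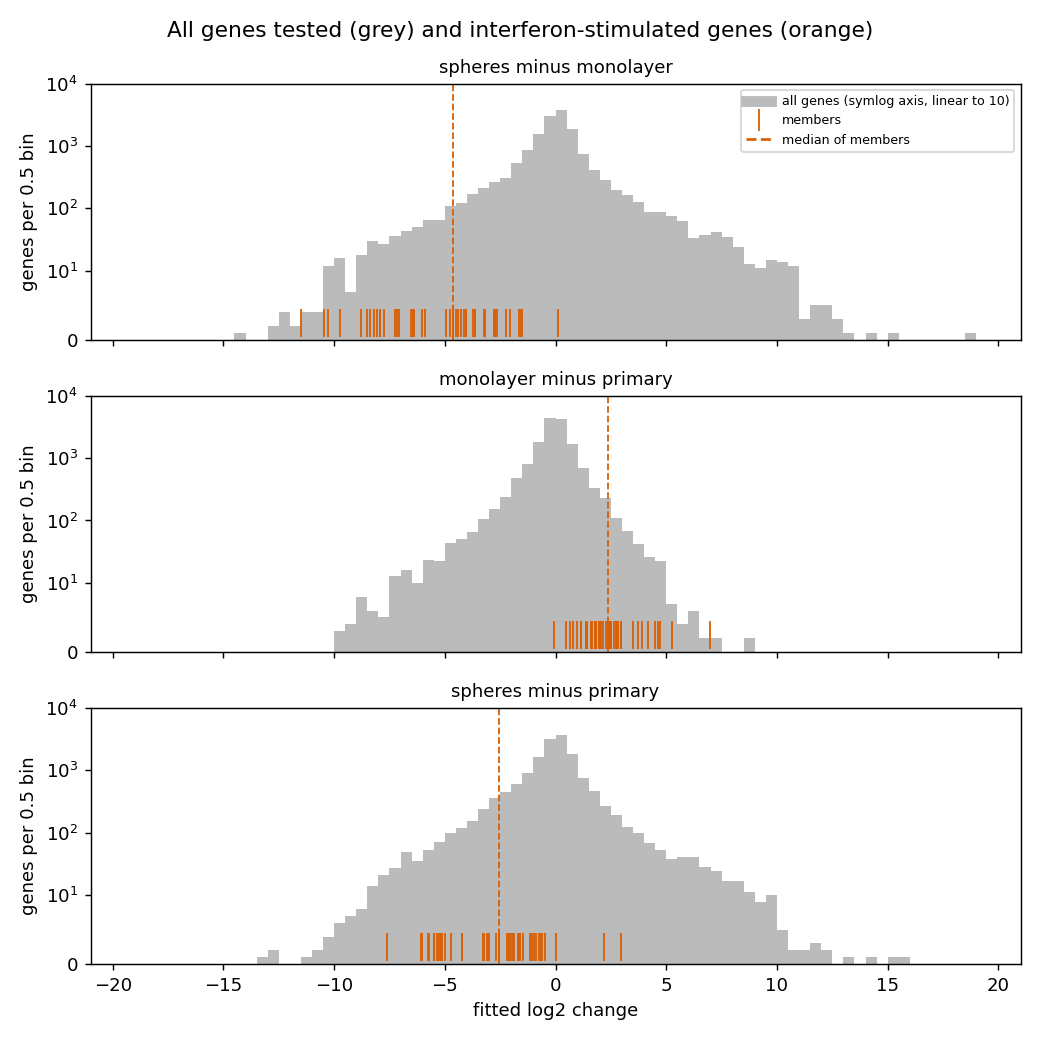
Grey bars count all 15675 tested genes by fitted log2 change (symmetric log axis of counts), orange marks are the 45 tested members and dashed lines their medians. The members have a median of -4.65 for spheres against monolayer, 2.37 for monolayer against primary cells and -2.57 for spheres against primary cells, whereas all genes lie around 0.

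Of the 4 transcription factors, Stat2, Irf9 and Irf7 followed the usual order and Irf1 did not. Stat2 (chromosome 10, 128270559 to 128292849), a subunit of the interferon-activated complex, was at 95.7, 96.9 and 96.8 CPM in primary cells, 351, 341 and 345 CPM in monolayer, and 21.5, 20.0 and 21.4 CPM in spheres. Irf9 (chromosome 14, 55603571 to 55610030), the DNA-binding subunit of that complex, was at 39.2, 39.5 and 41.9 CPM, then 89.7, 85.8 and 88.5 CPM, and then 12.3, 13.4 and 14.0 CPM in the same order of groups. Irf7 (chromosome 7, 141262706 to 141266481), which drives interferon alpha genes, was at 27.2, 25.9 and 26.4 CPM in primary cells, 128, 121 and 132 CPM in monolayer, and 1.05, 1.40 and 1.64 CPM in spheres. No group of libraries overlapped another for these 3 genes, and the ratio of monolayer to spheres was highest for Irf7 among them. Spheres were lower than monolayer 16.5-fold for Stat2 (log2 -4.04, SE 0.0392, adjusted p = 7.06e-32 by edgeR), 6.65-fold for Irf9 and 93.1-fold for Irf7. Monolayer was higher than primary cells 3.58-fold, 2.19-fold and 4.79-fold for the same genes.

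Irf1 (chromosome 11, 53770014 to 53778374), an activator that interferon gamma induces through its gamma-activated site, kept nearly the same level throughout. It was at 24.9, 23.2 and 24.6 CPM in primary cells, 22.6, 21.4 and 24.3 CPM in monolayer, and 23.2, 26.2 and 24.3 CPM in spheres. All 3 groups overlapped. The edgeR adjusted p was 0.0988 for spheres against monolayer, 0.191 for monolayer against primary cells and 0.755 for spheres against primary cells, with log2 differences of 0.11 (SE 0.0609), -0.09 (SE 0.0608) and 0.02 (SE 0.0596). Without TMM scaling, which shifts the median of all genes by 0.305 and -0.296 in the first and the second of these comparisons, Irf1 was called higher in spheres than monolayer (0.42) and lower in monolayer than primary cells (-0.39). Without monolayer library 3 or sphere library 1 it was also called higher in spheres than monolayer, at 0.16 (adjusted p = 0.033) and 0.15 (adjusted p = 0.0387 by edgeR). Gm17334 overlaps 10.8% of its span.

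**Figure D3:**
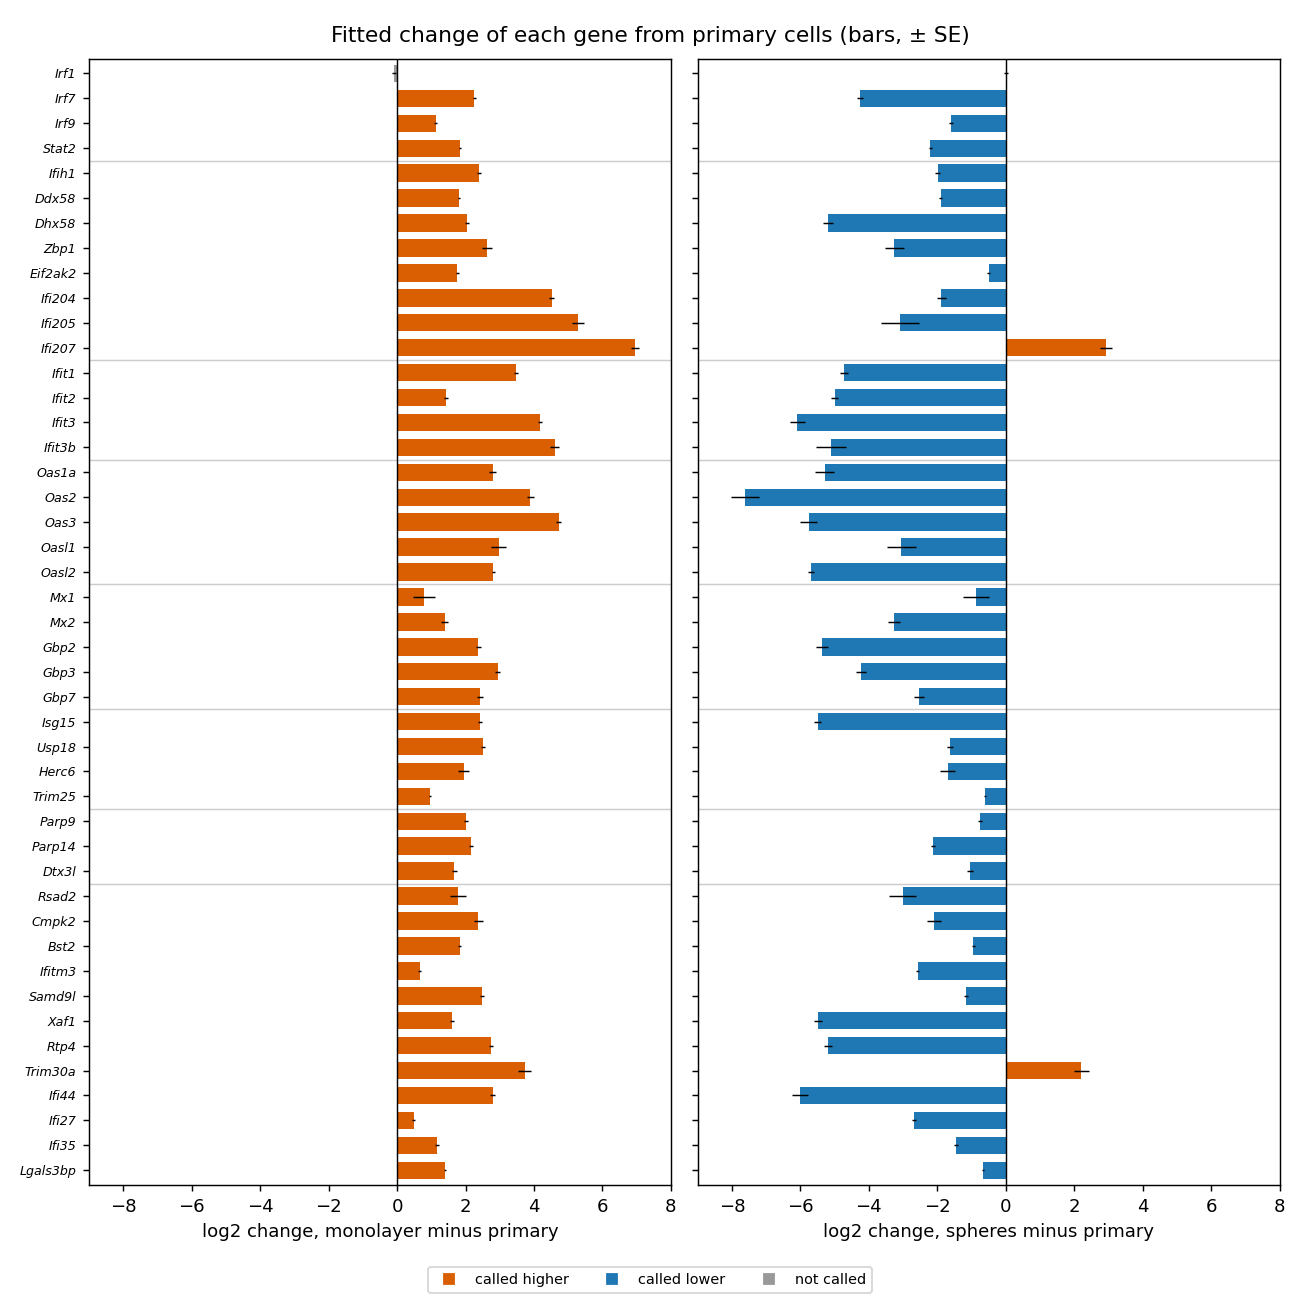
Bars give the log2 change from primary cells for each tested member, for monolayer (left) and spheres (right), with SE from the edgeR fit and colour for the call. Monolayer bars run from -0.09 for Irf1 to 6.96 for Ifi207, and sphere bars run from -7.62 for Oas2 to 2.94 for Ifi207.

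All 8 tested nucleic acid sensors fell in spheres against monolayer, by 4.76-fold to 338-fold, and all 8 rose in monolayer against primary cells, by 3.39-fold to 127-fold. Ddx58 (chromosome 4, 40203773 to 40239828), which encodes the RNA sensor RIG-I, was at 60.2, 58.7 and 58.0 CPM in primary cells, 206, 211 and 203 CPM in monolayer, and 16.2, 15.2 and 16 CPM in spheres. Eif2ak2 (chromosome 17, 78852564 to 78882573), the kinase PKR that stops translation on double-stranded RNA, was at 35.4, 35.6 and 36.1 CPM, then 121, 126 and 116 CPM, and then 26.0, 25.2 and 25 CPM. The groups did not overlap for either gene, and Eif2ak2 had spheres close below primary cells, at 1.41-fold lower (log2 -0.49, SE 0.0449, adjusted p = 1.66e-10 by edgeR). Ifih1, the sensor MDA5, fell 20.8-fold in spheres against monolayer, Dhx58, the RIG-I-like helicase LGP2, fell 150-fold and Zbp1, a sensor of nucleic acid in Z form, fell 56.4-fold. Other genes overlap 28.1% of the span of Dhx58.

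The Ifi200 genes encode DNA-binding proteins and lie together on chromosome 1 (173723427 to 174031810). Ifi204 was at 3.31, 3.18 and 3.75 CPM in primary cells, 77.5, 82.2 and 74.1 CPM in monolayer, and 0.874, 1.07 and 0.809 CPM in spheres. Ifi207 was at 0.251, 0.588 and 0.361 CPM in primary cells, 49.9, 51.6 and 50.6 CPM in monolayer, and 2.78, 3.20 and 3.31 CPM in spheres. Every sphere library stood above every primary library for Ifi207, against the order of Ifi204 beside it. Ifi207 rose 127-fold from primary cells to monolayer (log2 6.96, SE 0.118) and 7.73-fold from primary cells to spheres (log2 2.94, SE 0.175, adjusted p = 2.6e-14 by edgeR), and fell 16.4-fold from monolayer to spheres. Ifi205 was 39.1-fold higher in monolayer than in primary cells and 338-fold lower in spheres than in monolayer, where the ratio of summed counts is 364 (95% exact binomial counting interval 142 to 1340). These genes share sequence, Ifi204 23.2% and Ifi205 49.5% of their 50-base words with Ifi211 and Ifi207 7.4% with other genes, so the split of reads among them is uncertain.

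**Figure D4:**
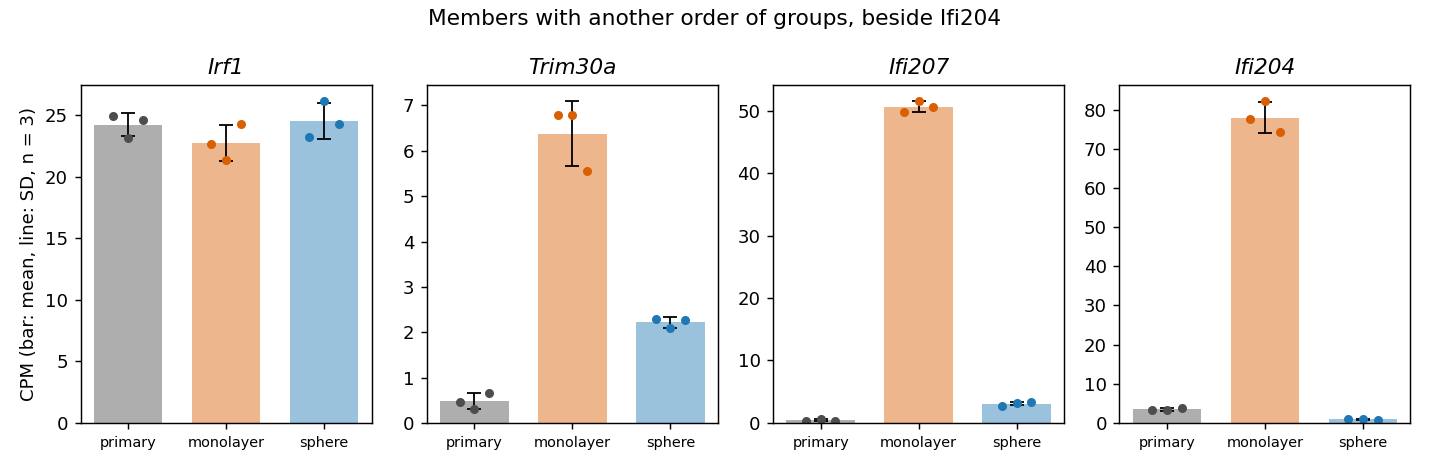
Bars give mean CPM with SD (n = 3) and dots the libraries, each panel on its own scale, for Irf1, Trim30a and Ifi207, with Ifi204 as a gene of the common order. Primary cells are the lowest group for Ifi207 (0.251 to 0.588 CPM) and for Trim30a (0.314 to 0.662 CPM), and the groups of Irf1 overlap.

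The 4 IFIT genes, which encode proteins that bind viral RNA, lie together on chromosome 19 (34550694 to 34650009) and fell by 87.7-fold to 1220-fold in spheres against monolayer. Ifit1 (34640871 to 34650009) was at 14.6, 15.4 and 15.4 CPM in primary cells, 176, 175 and 157 CPM in monolayer, and 0.694, 0.351 and 0.698 CPM in spheres. Ifit3 was at 4.08, 4.37 and 4.76 CPM, then 79.5, 80.7 and 79.1 CPM, and then 0.103, 0.0195 and 0.0735 CPM. Both were under 1 CPM in every sphere library, Ifit3 with 9 counts over all 3, and monolayer was the highest group without overlap. Ifit1 rose 11.2-fold from primary cells to monolayer and fell 291-fold in spheres against monolayer (log2 -8.20, SE 0.0925, adjusted p = 3.12e-30 by edgeR). For Ifit3 the ratio of summed counts for monolayer to spheres is 1280 (counting interval 675 to 2800), and for Ifit3b it is 929 (362 to 3410). Ifit3 shares 51.2% of its 50-base words with Ifit3b, and Ifit3b 44.5% with Ifit3, so the split of reads between them is uncertain.

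The 5 OAS genes, whose products sense double-stranded RNA or resemble such sensors, fell by 66.8-fold to 3270-fold in spheres against monolayer and rose by 6.92-fold to 26.4-fold in monolayer against primary cells. Oasl2 (chromosome 5, 114896936 to 114912234) was at 29.4, 29.9 and 29.6 CPM in primary cells, 212, 207 and 203 CPM in monolayer, and 0.746, 0.468 and 0.533 CPM in spheres. Oas3, which makes the oligoadenylates that activate RNase L, was at 2.62, 3.00 and 2.65 CPM, then 72.0, 71.5 and 74.5 CPM, and then 0.0771, 0.0195 and 0.0551 CPM. Both had their 3 groups far apart. Oasl2 fell 356-fold in spheres against monolayer (log2 -8.51, SE 0.072, adjusted p = 4.72e-33 by edgeR). Oas2 had 1 count over the sphere libraries, a ratio of summed counts of 4050 against monolayer (727 to 160000), and Oas3 had a ratio of 1500 (728 to 3730). Oas1a fell 310-fold, and Oasl1, which restrains Irf7 translation in mice, had a ratio of 67.2 (36.3 to 141). Oas1a shares 57.6% of its 50-base words with Oas1g.

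The GTPases fell by 3.27-fold to 209-fold in spheres against monolayer. Gbp3 (chromosome 3, 142560026 to 142573209), a guanylate-binding protein gene, was at 6.85, 6.67 and 8.23 CPM in primary cells, 55.7, 55.3 and 55.8 CPM in monolayer, and 0.488, 0.429 and 0.276 CPM in spheres. Gbp7 was at 8.61, 8.00 and 9.13 CPM, then 44.9, 49.2 and 44.3 CPM, and then 2.19, 1.25 and 1.16 CPM. Groups were apart for both. Gbp3 fell 140-fold in spheres against monolayer (log2 -7.15, SE 0.114, adjusted p = 3.65e-27 by edgeR), and Gbp2 fell 209-fold. Mx1 (chromosome 16, 97447035 to 97462907), which encodes a dynamin-like GTPase that blocks influenza virus in mice with an intact allele, had far lower values. It stood at 0.503, 0.549 and 0.522 CPM in primary cells, 1.04, 0.599 and 1.08 CPM in monolayer, and 0.154, 0.312 and 0.368 CPM in spheres. It was 1.73-fold higher in monolayer than in primary cells (log2 0.79, SE 0.33, adjusted p = 0.0356 by edgeR), a call lost without any 1 of the primary libraries, without monolayer library 1 or 3 and without TMM scaling, with an adjusted p of 0.0693 to 0.177 in those fits. Its call against primary cells in spheres (log2 -0.87, SE 0.376, adjusted p = 0.0382 by edgeR) was lost without any 1 of the primary libraries or without sphere library 1 or 2, with an adjusted p of 0.0527 to 0.141. GENCODE M21 types Mx2, which fell 24.6-fold, as a polymorphic pseudogene.

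The ISG15 system attaches the ubiquitin-like protein ISG15 to other proteins. Isg15 (chromosome 4, 156199424 to 156200818) was at 21.1, 22.4 and 21.2 CPM in primary cells, 117, 112 and 119 CPM in monolayer, and 0.308, 0.487 and 0.588 CPM in spheres. Trim25 (chromosome 11, 88999376 to 89020293), a ubiquitin ligase that activates RIG-I, was at 89.6, 88.6 and 90.0 CPM, then 173, 175 and 171 CPM, and then 59.0, 58.4 and 59.4 CPM. Isg15 was under 1 CPM in every sphere library, whereas Trim25 was at 58 CPM or more there. In spheres against monolayer Isg15 fell 251-fold (log2 -7.92, SE 0.087, adjusted p = 1e-30 by edgeR) and Trim25 fell 2.93-fold. Usp18, the protease that removes ISG15 and restrains the type I receptor, fell 17.6-fold, and Herc6, a mouse ligase for ISG15, fell 12-fold. Gm44148 covers 62.8% of the Usp18 span and other genes cover 53.8% of Herc6, and how that bears on their levels was not tested.

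The PARP genes and Dtx3l lie within chromosome 16, 35832874 to 35972605, and fell by 6.52-fold to 19.4-fold in spheres against monolayer. Parp14, an ADP-ribosyltransferase, was at 19.7, 21.9 and 22.1 CPM in primary cells, 94.3, 99.1 and 91.9 CPM in monolayer, and 5.19, 4.89 and 4.61 CPM in spheres. Parp9, which works with the ubiquitin ligase DTX3L, was at 16.5, 17.5 and 15.9 CPM, then 66.9, 65.6 and 68.5 CPM, and then 10.3, 9.78 and 9.76 CPM. The groups did not overlap for either, and Parp9 was the less affected in spheres against primary cells, at 1.67-fold lower and 4.33-fold lower for Parp14. Parp9 shares 19.1% of its span with Dtx3l.

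The 12 other effectors all fell in spheres against monolayer, by 2.88-fold to 470-fold. Lgals3bp (chromosome 11, 118392751 to 118402092), a secreted galectin-binding glycoprotein gene, was at 213, 216 and 224 CPM in primary cells, 587, 545 and 583 CPM in monolayer, and 136, 135 and 139.7 CPM in spheres. Ifitm3 (chromosome 7, 141009586 to 141010770), whose protein blocks viral fusion with endosomes, was at 144, 149.6 and 146 CPM, then 237, 218 and 240.2 CPM, and then 24.0, 24.5 and 25.3 CPM. Both kept a sizeable level in spheres, and Ifitm3 was the closer to monolayer in primary cells. Lgals3bp fell 4.17-fold in spheres against monolayer (log2 -2.06, SE 0.0349, adjusted p = 1.31e-26 by edgeR), and Ifitm3 fell 9.41-fold. Lgals3bp alone made 32.2 to 33.0% of the summed member level in spheres, against 13.7 to 14.6% in monolayer.

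Bst2 (chromosome 8, 71534255 to 71537456), the tethering protein of budding virus, fell 6.93-fold in spheres against monolayer, and Rsad2, the antiviral protein viperin, fell 28.7-fold with its neighbour Cmpk2, a mitochondrial nucleotide kinase gene that fell 22.3-fold. Xaf1, whose protein promotes apoptosis, fell 138-fold, Samd9l, a translation repressor of antiviral defence, fell 12.5-fold, Ifi27 fell 9.0-fold and Ifi35 fell 6.18-fold. Ifi44 had a ratio of summed counts of 463 (252 to 967), and Rtp4 fell 257-fold, with other genes over 42.4% of its span. Per kilobase of exon, where genes can be compared, the highest members in spheres were Lgals3bp at 48.1, Ifitm3 at 36.3 and Bst2 at 31.8 CPM per kilobase. In monolayer they were Ifitm3 at 342, Bst2 at 221 and Lgals3bp at 201 CPM per kilobase. These values divide by exon length although reads in introns were counted too.

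Trim30a (chromosome 7, 104409025 to 104465193), a mouse TRIM protein that limits signalling from Toll-like receptors, was at 0.461, 0.314 and 0.662 CPM in primary cells, 6.80, 6.79 and 5.55 CPM in monolayer, and 2.29, 2.09 and 2.28 CPM in spheres. Primary cells were the lowest group in every library. It rose 13.3-fold from primary cells to monolayer and 4.63-fold from primary cells to spheres (log2 2.21, SE 0.213, adjusted p = 5.48e-10 by edgeR). Trim30a shares 6.5% of its 50-base words with Trim30d. Ifi207, the other member that rose in spheres against primary cells, shares 7.4%. A limit of 5% leaves out both, so a count of 0 under it is fixed beforehand. Whether shared sequence bears on the rise was not tested.

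Members with and without a response element in the promoter window both followed the order of the set. The median log2 change for spheres against monolayer was -4.97 over 19 members with the motif and -3.65 over 15 without it. For monolayer against primary cells the medians were 2.43 and 1.67, and for spheres against primary cells they were -3.01 and -1.70. These medians describe members chosen as one list, and the difference was not tested.

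The wider pathway, 75 further genes on a list of ligands, receptors, kinases, sensors, feedback genes and other induced genes, was then read, of which 73 were found and 52 tested. In spheres against monolayer 39 fell and 8 rose, in monolayer against primary cells 37 rose and 6 fell, and in spheres against primary cells 35 fell and 9 rose by the edgeR test. Over all genes the shares lower and higher were 37.7% and 40.7% in the first comparison, 36.9% and 34.4% in the second and 40.6% and 38.9% in the third. Their median log2 changes were -1.74, 0.62 and -0.98. None of the 12 ligand genes passed the filter: Ifna1, Ifna5, Ifna13, Ifnb1, Ifne and Ifng are listed at 0, and Ifnz had 14, 11 and 10 counts over the primary, monolayer and sphere groups. Another gene covers 56.2% of the Ifng span. Ifnk, Ifnl2 and Ifnl3 lie inside other genes, so no level is given for them.

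Of the 6 receptor genes, 3 fell, 2 rose and 1 did not pass the test in spheres against monolayer, at a median log2 change of -0.08, beside 37.7% lower and 40.7% higher of all genes. Ifnar1, a chain of the type I receptor, averaged 108, 117 and 89.6 CPM in primary cells, monolayer and spheres, and was 1.31-fold lower in spheres than monolayer (log2 -0.39, SE 0.0344). Ifnar2, the other chain, averaged 28.8, 23.9 and 34.6 CPM and was 1.45-fold higher in spheres than monolayer. Leaving out TMM scaling moves the median of all genes upward by 0.305 in this comparison, most of the size of the Ifnar1 difference. Ifnlr1, a receptor chain for lambda interferons, was at 2.53, 2.51 and 2.35 CPM in primary cells, 2.24, 2.37 and 3.49 CPM in monolayer, and 14.6, 16.6 and 14.7 CPM in spheres. Every sphere library was above all the others, 5.67-fold above monolayer (log2 2.52, SE 0.121, adjusted p = 2.49e-16 by edgeR). Jak1, a receptor-bound kinase, was 1.11-fold lower in spheres than monolayer (log2 -0.16), a difference smaller than the 0.305 by which leaving out TMM scaling moves the median of all genes.

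The 8 pathway genes that rose in spheres against monolayer were Ifnar2, Ifnlr1, Jak2, Stat3, Mavs, Tbk1, Traf3 and Ptpn2, and all but Ifnlr1 did so by at most 1.45-fold. Mavs, the mitochondrial adaptor of RIG-I, averaged 39.6, 40.4 and 52.6 CPM in primary cells, monolayer and spheres, and Tbk1, a kinase that activates IRF3, averaged 45.5, 54.0 and 63.0 CPM. Stat3, a transducer of many cytokines, averaged 179, 216 and 268 CPM. Unlike Ddx58 and Ifih1, whose products signal through MAVS, these genes were highest in spheres. The interferon gamma receptor genes Ifngr1 and Ifngr2 averaged 109.5, 129 and 133 CPM and 66.7, 90.7 and 79.0 CPM, and Irf3, which switches on interferon beta, averaged 41.6, 44.0 and 36 CPM. Irf8, Myd88, Trex1, Gbp4 and Gbp6 are listed at 0, and other genes cover 99.8% or more of each span, so no level is given for them.

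Among feedback genes, Socs1, which inhibits the JAK kinases, was at 20.9, 20.7 and 20.46 CPM in primary cells, 9.79, 8.76 and 10.0 CPM in monolayer, and 9.97, 11.4 and 10.4 CPM in spheres. Socs3, another such inhibitor, was at 132, 127 and 132 CPM, then 38.6, 35.1 and 40.3 CPM, and then 14.5, 16.4 and 15.5 CPM. Both fell from primary cells to monolayer, Socs1 2.17-fold and Socs3 3.44-fold, where 44 of the members rose. Of the 23 tested induced genes outside the members, all fell in spheres against monolayer, where 37.7% of all genes were lower. In monolayer against primary cells 22 rose, where 34.4% were higher, and 1, Ifitm1, fell. Irgm1, a GTPase of defence against intracellular pathogens, averaged 48.8, 163 and 12.1 CPM, and Helz2 and Tor3a averaged 67.3, 165 and 13.9 CPM and 69.5, 172 and 56.3 CPM. Adar, an RNA-editing enzyme, averaged 38.5, 87.6 and 30.8 CPM. Samhd1, a nuclease that depletes nucleotides, fell 31.9-fold in spheres against monolayer. Tmem173, which encodes the adaptor STING, fell 8.87-fold.

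**Figure D5:**
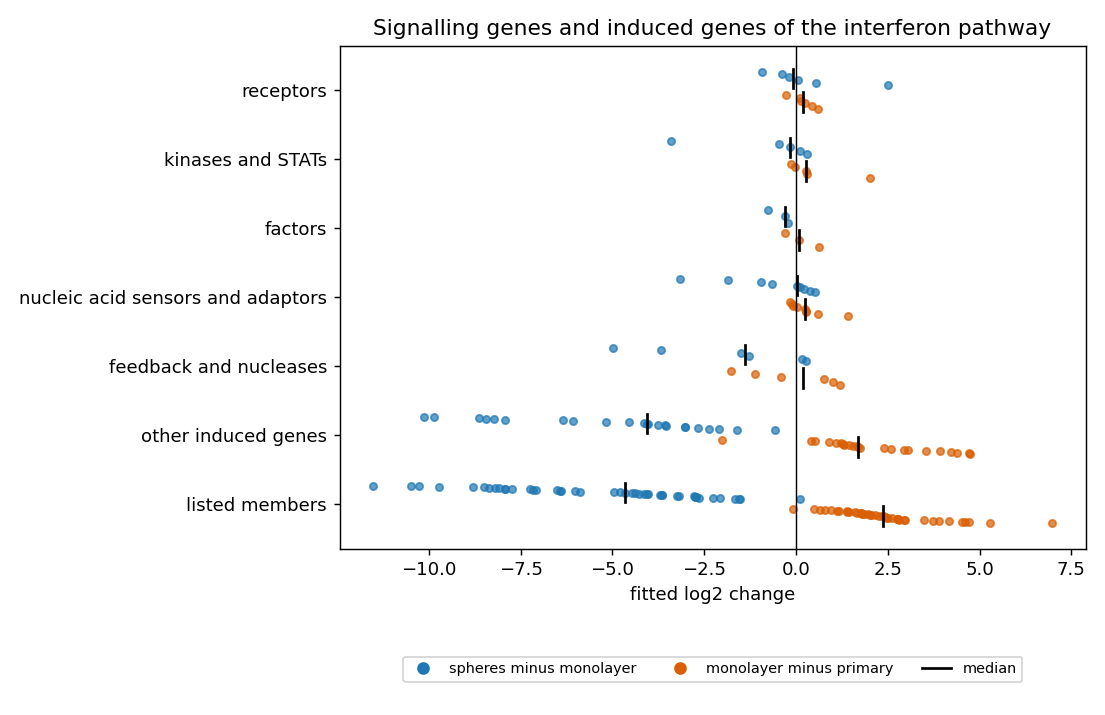
Dots give the log2 change of each tested pathway gene by role, and of the members in the last row, for spheres minus monolayer and monolayer minus primary cells, with a line at each median. Ifnlr1 (2.52) lies far from the other receptor dots for spheres minus monolayer, and every other induced gene lies below 0 there, as the members do except Irf1.

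Markers of other cell types were summed beside these results. Macrophage and leukocyte markers, with all 15 at a count, summed to 32.7 to 35.7 CPM for primary cells, 15.5 to 17.6 for monolayer and 55.7 to 58.5 for spheres, a sum in the opposite order to the members. Lyz2 gave the largest share of it in primary cells and spheres, at 12.4, 3.08 and 27.4 CPM on average, whereas Csf1r (2.82, 3.86 and 1.64 CPM), Cd14 (4.63, 5.11 and 2.58 CPM) and Aif1 (0.161, 0.223 and 0.0123 CPM) had the order of the members. Endothelial markers summed to 21.7 to 22.8 CPM for primary cells, 36.8 to 39.9 for monolayer and 2.04 to 2.59 for spheres, a sum in the order of the members. Kdr (13.2, 27.5 and 0.402 CPM on average) and Flt1 (7.75, 9.76 and 1.04 CPM) carried it, whereas Pecam1, Cdh5, Tie1 and Erg averaged lower in monolayer than in primary cells. Of these 8, Erg was at 0 in monolayer, and Cdh5 and Tie1 were at 0 in spheres; their part in the results was not tested. Epithelial markers summed to 228 to 231, 11.7 to 12 and 577 to 590 CPM, and lymphocyte markers to at most 0.514 CPM in any library. Cd3e, Cd3g, Ms4a1, Nkg7 and Ncr1 are listed at 0 in every group. Ms4a1 lies wholly inside another gene and other genes cover 43.7% of Cd3e, so their 0 is not read as absence. The plasmacytoid dendritic list without Bst2 summed to 447 to 456, 375 to 407 and 741 to 774 CPM, nearly all from Tcf4, at 452, 388 and 753 CPM on average, with Siglech at 0 in primary cells and spheres. Erythroid markers reached at most 1.07 CPM in any library.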

How the data were processed

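RNA-seq of mouse dental papilla cells was read from the table the authors deposited, raw whole-number read counts of each gene in 9 libraries. Per the submitters' processing notes, fastp 0.20.0, HISAT2 2.1.0 and featureCounts 1.6.0 were used with build GRCm38. The sources used here name no annotation release, strand setting or multi-mapping treatment. The deposited length of each gene equals its whole span (all 53245 single-interval entries), so intron reads were counted, and genes lying inside others could lose their reads. The deposited Length column gives bases, another kind of value than a count, and was read only for this.

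Groups came from the sample titles. In edgeR 4.0.16 under R 4.3.3, libraries were scaled by TMM, genes were kept by filterByExpr (minimum count 10, 15675 genes), and 1 quasi-likelihood fit of group means over the 9 libraries gave two-sided tests, adjusted by Benjamini-Hochberg over all tested genes at 0.05. Changes beyond 2-fold used glmTreat. SE is the log2 change over the square root of F. Folds are ratios of mean CPM, and where the lower group had 10 counts or fewer, the scaled ratio of summed counts has a 95% exact binomial interval. Gene types, exon lengths and shared sequence came from GENCODE M21, where all 46 members have the same coordinates. The members and lists were chosen with earlier results of these data known. Values in every library are given for at least 2 members of each role with the highest mean level and for members called against their role; Ifi204, Usp18, Bst2, Mx1 and others are named beside them. Alternatives were DESeq2 1.42.0, other scaling, no filter, 2 groups per fit, the replicate number as a block and leaving out each library. The code was tested on simulated data. Of the pathway genes, 1 is not reported here by name.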

Additional observations from a re-analysis of the deposited data

How the results depend on the processing

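Of 2024 single-member changes under 15 other fits (Ifi205 had no value for spheres against primary cells with only those 2 groups, where it fell to the filter), 2006 kept direction and call, 12 lost the call, all of Mx1, 4 gained one, all of Irf1, and 2 turned sign. Irf1 turned sign in spheres against primary cells, to -0.016 without primary library 2 and -0.026 without sphere library 2, in a range of -0.026 to 0.059 over fits without 1 library, none past the test. Without TMM factors 1 member (Irf1) was called higher in spheres than monolayer, where the count otherwise ranged from 0 to 1 over fits without 1 library, and 1 was called lower in monolayer than primary cells. Under that scaling 13 other pathway genes were higher in spheres than monolayer and 13 lower in monolayer than primary cells, against 8 and 6, and the share of higher calls over all genes went from 51.9% to 67.4% and from 48.2% to 25.6%. A further 2 alternatives were chosen after seeing the data. With only the 29 members that overlap no other gene, 29 were lower in spheres than monolayer and 29 were higher in monolayer than primary cells. Of these, 1 was higher in spheres than primary cells. With only members sharing under 5% of 50-base words, 0 were higher in spheres than primary cells, because that limit leaves out both members that rose. The smaller counts follow from fewer members.

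Deviations of libraries with the same replicate number correlated at 0.0256 at most, and those with different numbers at 0.0376 at most. If the spread is technical, such values cannot show whether a number marks a shared animal or culture. With the replicate number as a block, 44 members were lower in spheres than monolayer, 43 rather than 44 were higher in monolayer than primary cells (Mx1, log2 0.78, adjusted p = 0.0529 by edgeR) and 42 were lower in spheres than primary cells. Depth limits the 7 members with 10 counts or fewer over the sphere libraries.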
